A study of Homo sapiens with 60 samples.

Results

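HT29 is an established line from a human colorectal adenocarcinoma. It was exposed for 24 h to a hot-water extract of Rehmanniae Radix Preparata, the processed root of a Rehmannia plant, and RNA was sequenced from 3 libraries at 500 µg/mL and 3 libraries at 20 µg/mL of the same extract. These 6 libraries, out of 60 in the series, were chosen by dose and extract alone, and every gene with enough counts was compared. The 3 libraries at 100 µg/mL and the 3 libraries of cells given only the dimethyl sulfoxide vehicle serve below as levels and entered no test of their own. For the vehicle, 0.1% dimethyl sulfoxide stands in the labels but 2% in the design text. The design text adds that extracts inhibiting growth below the top dose were given at lower amounts, while the labels carry the nominal doses used here. All cells were of the same line, so no group differs in genotype, and nothing in the labels says that the replicates were separate cultures. A p-value from the main test therefore reflects how far replicate libraries scatter within groups, estimated over the 57 libraries fitted, and that scatter may be technical.

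NRF2 is a transcription factor that is kept low by KEAP1 and accumulates when reactive molecules modify KEAP1. It then binds antioxidant response elements, short DNA motifs in front of genes for glutathione synthesis, NADPH supply, aldehyde and quinone reduction, and iron storage. The aryl hydrocarbon receptor, a sensor of flat aromatic molecules, shares some of these targets, among them ALDH3A1 and UGT1A6, but is better known for driving CYP1A1. Both systems are active in colon epithelium, which meets dietary plant compounds, and HT29 cells keep both.

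Total counts of the Rehmanniae Radix Preparata libraries ran from 21467132 to 29615590. The 12 colon epithelium markers were all detected, with summed levels of 11400 to 11700 CPM (counts scaled to a common library size) at both 500 and 20 µg/mL. The 9 fibroblast markers summed to 2.11 to 2.3 CPM at 500 µg/mL and 2.35 to 2.51 CPM at 20 µg/mL, and COL1A2 and PDGFRA had no count at either dose. The 9 leukocyte markers summed to 1370 to 1430 CPM and 1370 to 1540 CPM at those doses, with the T and B cell markers CD3D, CD3E and MS4A1 at 0 in both groups. Nearly all of that sum was lysozyme, LYZ, with means of 1390 CPM at 500 µg/mL and 1430 CPM at 20 µg/mL. The 9 hepatocyte markers summed to 406 to 512 CPM and 425 to 463 CPM at those doses, nearly all from SERPINA1 with means of 452 and 444 CPM, and APOA2 and APOB were at 0 in both groups. Replicate 2 at 500 µg/mL stood apart. On the first principal component of the 9 Rehmanniae libraries, which held 19.8% of the variance, it lay at 31.4, and the other 8 libraries lay between -15.58 and 13.77. Mitochondrially encoded mRNAs took 12.64% of its counts, against 9.22% and 9.35% in the other 500 µg/mL libraries and 9.08% to 10.01% at 20 µg/mL (exact permutation test of the doses, two-sided, p = 0.8, where 0.1 is the smallest p that 3 against 3 can give). The mitochondrial share ran from 7.48% to 11.47% at 100 µg/mL and from 8.71% to 11.41% in the vehicle. The part of replicate 2 at 500 µg/mL in the results was not tested, so values without it are given beside those it moves.

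The question was which genes differ between the highest and the lowest dose of the extract. A small set of detoxification, NADPH and iron-storage genes was higher at 500 µg/mL, led by ALDH3A1. Of the genes that were lower, 1 belonged to any of the gene lists, SELENOW. Of 16356 genes tested, 29 passed an adjusted p of 0.05 in edgeR's quasi-likelihood test, a share of 0.177%, and 1324 had an unadjusted p under 0.05. Of the 29, 18 were higher at 500 µg/mL (0.11% of genes tested) and 11 lower (0.0673%). The differences were small in size. The 16 protein-coding genes that rose had 1.1 to 1.47 times the 20 µg/mL level, and the 10 protein-coding genes that fell had 0.785 to 0.877 times that level. In 28 of the 29 genes no library at 500 µg/mL overlapped a library at 20 µg/mL, against 13.1% of all genes tested. Picking the 29 by a test on these same libraries favours such separation. Without replicate 2 at 500 µg/mL, 12 genes passed, among them 10 of the 29. The number was 17 without replicate 3 at 500 µg/mL, and 16 and 14 without replicates 1 and 2 at 20 µg/mL. The main test drew its spread from 57 libraries. Of the 29 genes, 6 passed in a fit of the 9 Rehmanniae libraries alone. With the 6 libraries compared alone, 1 of them passed, and such fits have fewer degrees of freedom for the spread.

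**Figure D1:**
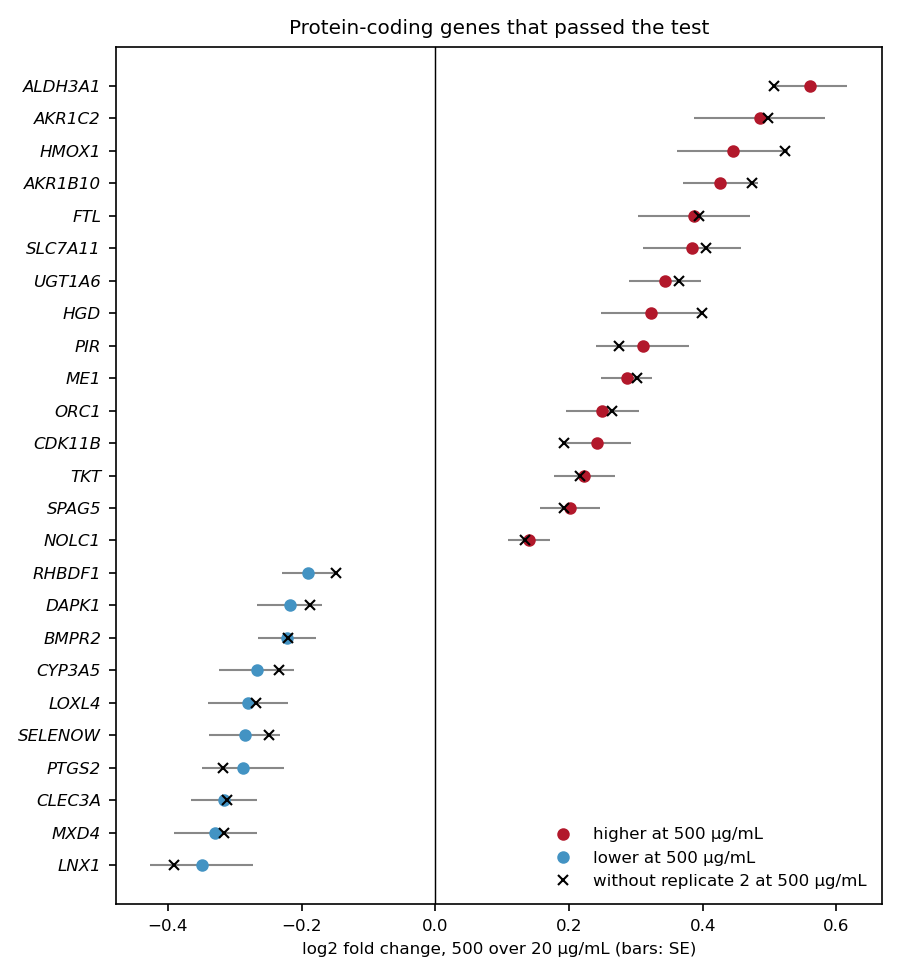
Log2 fold change of 500 over 20 µg/mL (x axis) for protein-coding genes that passed the test; bars are standard errors and crosses the value without replicate 2 at 500 µg/mL. ALDH3A1 has the largest rise, at 0.56, LNX1 the largest fall, at -0.35, and every cross lies on the same side of 0 as its point.

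Where the promoter of such a gene could be printed from RefSeq, the 250 bases in front of its start were searched on both strands for TGACNNNGC, the core of the antioxidant response element. ME1 and UGT1A6, which rose, and RHBDF1, which fell, are shown in gene direction, with the matched letters in capitals.
ME1: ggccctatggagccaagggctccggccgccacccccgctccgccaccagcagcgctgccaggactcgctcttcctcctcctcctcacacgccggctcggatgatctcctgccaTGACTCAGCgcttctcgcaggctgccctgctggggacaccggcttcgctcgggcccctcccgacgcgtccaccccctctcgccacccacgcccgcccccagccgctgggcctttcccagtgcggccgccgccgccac
UGT1A6: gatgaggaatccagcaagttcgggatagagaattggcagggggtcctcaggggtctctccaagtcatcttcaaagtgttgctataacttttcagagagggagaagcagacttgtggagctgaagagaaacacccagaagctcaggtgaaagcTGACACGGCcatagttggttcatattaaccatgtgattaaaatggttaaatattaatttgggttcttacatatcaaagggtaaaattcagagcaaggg
RHBDF1: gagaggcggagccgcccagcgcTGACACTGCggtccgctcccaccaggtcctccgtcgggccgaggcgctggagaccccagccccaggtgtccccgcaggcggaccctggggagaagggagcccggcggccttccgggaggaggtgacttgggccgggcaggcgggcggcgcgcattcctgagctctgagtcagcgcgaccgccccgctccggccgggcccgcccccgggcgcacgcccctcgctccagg
The windows are from GRCh38.p14, at chr6:83431052-83431301 on the minus strand for ME1, at chr2:233692640-233692889 on the plus strand for UGT1A6 and at chr16:72632-72881 on the minus strand for RHBDF1. By GENCODE release 29 the last 20 bases of the ME1 window and the last 24 of the UGT1A6 window lie in the first exon of those genes, and the rest of the UGT1A6 window and the whole RHBDF1 window lie in introns of longer transcripts of the same genes. The whole UGT1A6 window also lies within transcripts of UGT1A7, UGT1A8, UGT1A9 and UGT1A10. The motif begins 137 bases before the RefSeq start of ME1, 98 before that of UGT1A6 and 228 before that of RHBDF1. Of the genes that rose, 10 had a window, and 3 of these held the motif, ME1, UGT1A6 and SPAG5. Of the genes that fell, 9 had a window and 1 held it, RHBDF1. Over all 35116 RefSeq promoter windows of that length 10.9% held the motif. Here and for the next motif, a gene was counted if any of its windows matched, while the share over all windows counts each window alone. The counts of genes and that share are therefore on unlike units. GCGTG, the core to which the aryl hydrocarbon receptor binds, was in the windows of 5 of the 10 genes that rose, ME1, UGT1A6, FTL, ORC1 and SPAG5, in 2 of the 9 that fell, DAPK1 and RHBDF1, and in 32.2% of all windows. For UGT1A6 the GCGTG match lies in another RefSeq window listed under that gene, and the window printed above does not hold it. In SPAG5 one match of each motif overlaps the other.

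ALDH3A1 oxidises aldehydes to acids and is a target of both NRF2 and the aryl hydrocarbon receptor. It lies on chromosome 17 from 19737984 to 19748943 (GENCODE release 29, GRCh38). It had 36.2, 41.4 and 37.1 CPM at 500 µg/mL, against 25.7, 26.5 and 25.7 CPM at 20 µg/mL. All 3 libraries at the higher dose lay well above the 3 at the lower one, which differed by less than 1 CPM. The mean was 38.2 ± 2.76 CPM at 500 µg/mL and 26.0 ± 0.502 CPM at 20 µg/mL (SD, n = 3 each), a log2 fold change of 0.56 ± 0.06 (SE; adjusted p = 8.5e-09). The vehicle mean was 27.4 CPM and the 100 µg/mL mean 29.5 CPM, so that most of the difference lay between 100 and 500 µg/mL. In RNA from whole cultures, a change in the makeup of the cells and a change of RNA per cell cannot be told apart. Its adjusted p stayed at or below 1.1e-06 whichever of the 6 libraries was left out. Of the other 16 aldehyde dehydrogenase genes tested, none passed, and the median of all 17 was 0.004 on the log2 scale, against -0.002 over all genes tested. ALDH1B1, a mitochondrial member, came closest, with 36.7, 43.1 and 39.4 CPM at 500 µg/mL and 32.4, 35.6 and 34.4 CPM at 20 µg/mL (adjusted p = 0.073, and 0.03 with DESeq2). Without replicate 2 at 500 µg/mL, the highest of its group, the adjusted p of ALDH1B1 in edgeR's test was 0.49.

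HMOX1, heme oxygenase 1, opens the heme ring and releases iron. It lies on chromosome 22 from 35380361 to 35394214. It had 16.7, 13.3 and 14.3 CPM at 500 µg/mL, against 11.1, 10.9 and 10.6 CPM at 20 µg/mL. The groups did not overlap, and the 100 µg/mL and vehicle means, at 11.0 and 10.7 CPM, were close to the 20 µg/mL mean of 10.9 CPM. The log2 fold change was 0.45 ± 0.08 (SE; adjusted p = 0.0047), and 0.52 without replicate 2 at 500 µg/mL, the lowest of its group. HMOX1 passed in 5 of the 6 fits that left out 1 library, with a highest adjusted p of 0.098.

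**Figure D2:**
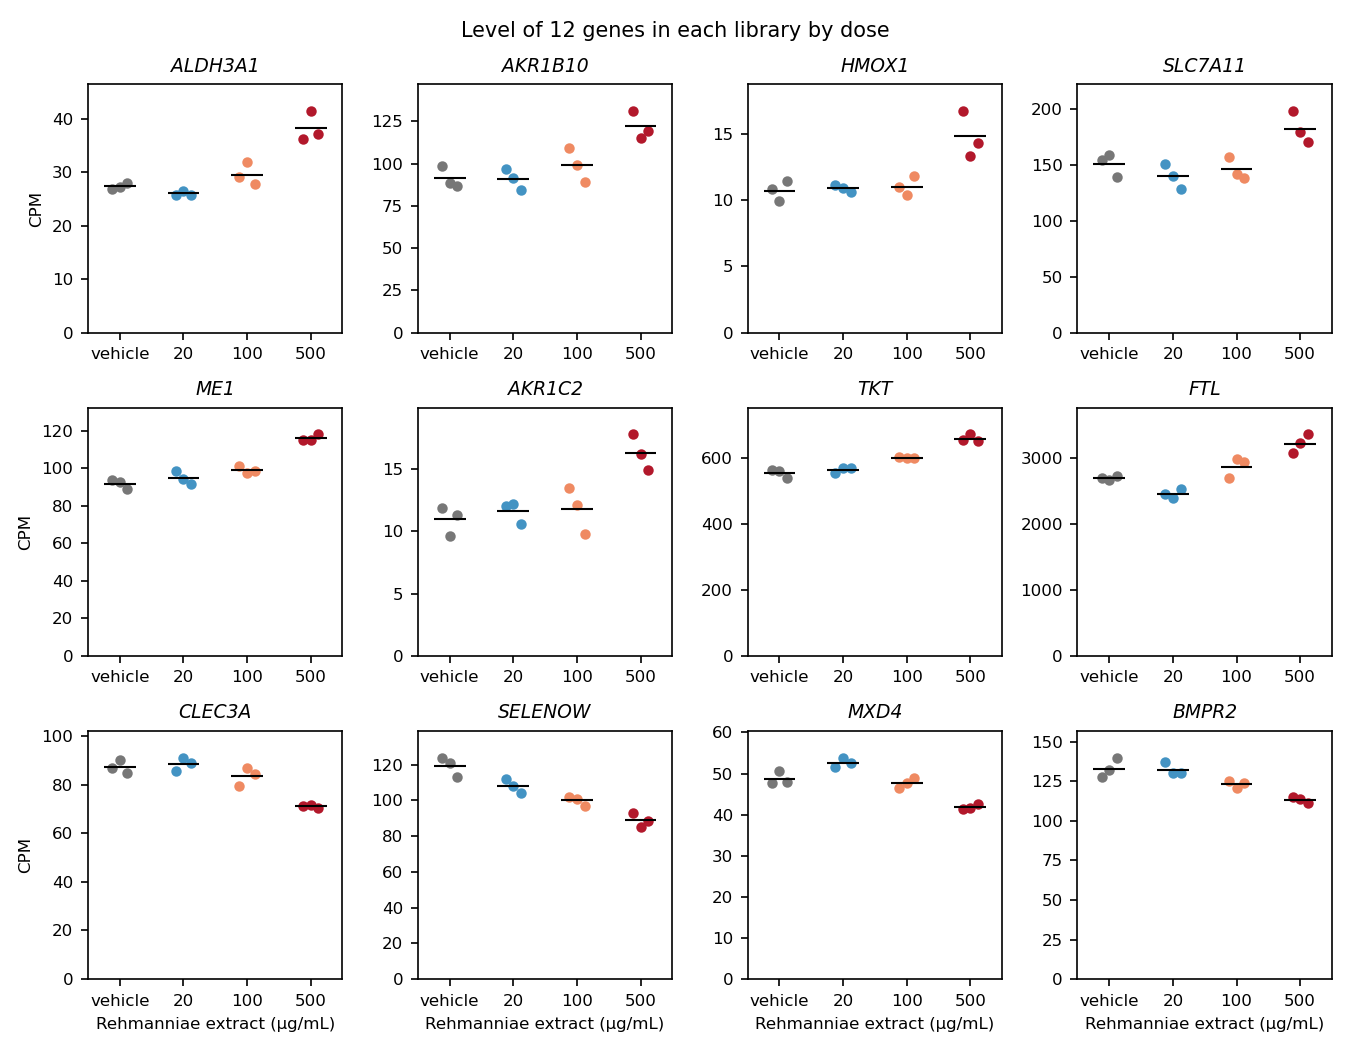
Level in CPM (y axis) of 12 genes that passed the test in each library of vehicle, 20, 100 and 500 µg/mL (x axis); points are libraries and lines group means. ALDH3A1 stands at 38.2 CPM at 500 µg/mL, against 26.0 CPM at 20 µg/mL, while CLEC3A, SELENOW, MXD4 and BMPR2 in the bottom row are lowest at 500 µg/mL.

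Among the NRF2 targets, 29 of 30 listed genes were tested, 8 rose and 0 fell, against 0.11% and 0.0673% of all genes tested. All 29 had a log2 fold change above 0, with a median of 0.20, against 49.2% of all genes tested above 0 and a median of -0.002. In 21 of the 29 the groups did not overlap, all with 500 µg/mL higher. That compares with 6.54% of all genes tested. The list's members were chosen with earlier results of these data known. The genes that rose belong to several branches of the response, which are given in turn.

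The reductases AKR1B10 and AKR1C2 reduce aldehydes, ketones and steroids with NADPH. AKR1B10, on chromosome 7 from 134527592 to 134541408, had 131, 115 and 119 CPM at 500 µg/mL, against 97.0, 91.2 and 84.2 CPM at 20 µg/mL. Its log2 fold change was 0.43 ± 0.06 (SE; adjusted p = 1.1e-05), with 99.1 CPM at 100 µg/mL and 91.3 CPM in the vehicle. AKR1C2 had 17.8, 16.2 and 14.9 CPM at 500 µg/mL, against 12, 12.2 and 10.6 CPM at 20 µg/mL (log2 fold change 0.48 ± 0.10; adjusted p = 0.014, and 0.0504 without replicate 2 at 500 µg/mL). The close relatives AKR1C1 and AKR1C3 had log2 fold changes of 0.35 and 0.40 without passing, with adjusted p = 0.16 and 0.21. With DESeq2 these were 0.072 and 0.077. AKR1C genes are near-identical in sequence, and how the authors' estimated counts divided reads among them is uncertain.

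NADPH supply and the sugar phosphates tied to it were represented by the cytosolic enzymes ME1 and TKT. ME1, malic enzyme, had 115, 115 and 118 CPM at 500 µg/mL, against 98.6, 94.3 and 91.8 CPM at 20 µg/mL (log2 fold change 0.29 ± 0.04; adjusted p = 1.2e-05). TKT, transketolase, had 653, 671 and 650 CPM at 500 µg/mL, against 553, 570 and 569 CPM at 20 µg/mL. Its log2 fold change was 0.22 ± 0.05 with adjusted p = 0.018, or 0.095 without replicate 2 at 500 µg/mL, and it passed in 1 of the 6 fits that left out a library. For both enzymes the lowest library at 500 µg/mL was above the highest of 20 µg/mL and of the vehicle.

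Glutathione and redox genes mostly had the same sign without passing. SLC7A11, which imports the cystine used for glutathione, had 198, 179 and 170 CPM at 500 µg/mL, against 151, 140 and 128 CPM at 20 µg/mL, and rose (log2 fold change 0.38 ± 0.07; adjusted p = 0.0061). The mean was 140 CPM at 20 µg/mL and 151 CPM in the vehicle, whose libraries overlapped with those at 20 µg/mL. GCLM, the modifier subunit of the enzyme that starts glutathione synthesis, had 91.9, 80.6 and 84.2 CPM at 500 µg/mL and 75.5, 66.4 and 61.7 CPM at 20 µg/mL (adjusted p = 0.054), just outside the threshold, and passed with DESeq2 (adjusted p = 0.016). Without replicate 2 at 500 µg/mL its adjusted p in edgeR's test was 0.065. NQO1, a quinone reductase often used as a readout of NRF2, had 555, 474 and 557 CPM at 500 µg/mL and 485, 453 and 439 CPM at 20 µg/mL. The groups overlapped through replicate 2 at 500 µg/mL, and the adjusted p was 0.074 with that library and 0.003 without it. With DESeq2 and all libraries it was 0.013. TXNRD1, thioredoxin reductase, had 410, 304 and 334 CPM at 500 µg/mL and 330, 302 and 277 CPM at 20 µg/mL (adjusted p = 0.48), and SRXN1, sulfiredoxin, had an adjusted p of 0.27.

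Iron storage was represented by FTL, the ferritin light chain, with 3070, 3230 and 3360 CPM at 500 µg/mL, against 2450, 2400 and 2530 CPM at 20 µg/mL. It rose by 0.39 ± 0.08 on the log2 scale (SE; adjusted p = 0.025, and 0.087 without replicate 2 at 500 µg/mL). The vehicle mean of 2690 CPM lay above every 20 µg/mL library and below every 500 µg/mL library. FTL has many processed copies in the genome, which makes its estimated count uncertain. FTH1, the heavy chain, had 5490, 6330 and 6220 CPM at 500 µg/mL and 4960, 4880 and 5280 CPM at 20 µg/mL (adjusted p = 0.11, and 0.035 with DESeq2). Without replicate 2 at 500 µg/mL its adjusted p in edgeR's test was 0.4. TFRC, the transferrin receptor for iron uptake, had 617, 522 and 596 CPM at 500 µg/mL and 584, 567 and 520 CPM at 20 µg/mL, with overlapping groups. Of the 19 genes of heme and iron handling tested, HMOX1 and FTL rose, against 0.11% of all genes tested, and the median log2 fold change was 0.05. FECH came closest of the others in that list (log2 fold change 0.28 ± 0.07, SE; adjusted p = 0.054). Its groups did not overlap, with means of 21.1 CPM at 500 µg/mL and 17.4 CPM at 20 µg/mL.

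Conjugation and the aryl hydrocarbon receptor were represented by UGT1A6, which attaches glucuronic acid to phenols. It had 62.8, 59.0 and 58.5 CPM at 500 µg/mL, against 49.8, 48.2 and 43.9 CPM at 20 µg/mL (log2 fold change 0.34 ± 0.05; adjusted p = 0.00024). UGT1A genes share their last exons, so reads there could be assigned to other members. Of 10 targets of the receptor tested, ALDH3A1 and UGT1A6 rose and 0 fell, against 0.11% and 0.0673% of all genes tested. CYP1A1, its classic target, had 1.41, 0.827 and 1.53 CPM at 500 µg/mL and 0.612, 0.977 and 0.987 CPM at 20 µg/mL. The groups overlapped (adjusted p = 0.82), and the vehicle libraries, at 5.75, 0.595 and 1.1 CPM, spread more widely than either dose. CYP1B1, TIPARP and AHRR, also targets, had log2 fold changes of 0.14, 0.04 and -0.22 with adjusted p of 0.75, 0.9 and 0.71. PIR, an iron-binding nuclear protein outside the lists, rose by 0.31 ± 0.07 (SE; adjusted p = 0.038, and 0.26 without replicate 2 at 500 µg/mL), with 15.0, 17.1 and 16.6 CPM at 500 µg/mL and 12.1, 12.8 and 14.4 CPM at 20 µg/mL. HGD, which breaks down homogentisate from tyrosine, rose by 0.32 ± 0.07 (SE; adjusted p = 0.046). It had 18.5, 16.9 and 20.8 CPM at 500 µg/mL and 14.7, 14.8 and 15.6 CPM at 20 µg/mL. Of the 6 fits that left out a library, HGD passed in 1, without replicate 2 at 500 µg/mL (adjusted p = 0.015). The highest adjusted p of those fits was 0.33.

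Of the genes of DNA replication and mitosis, 1 passed, although nearly all had values above 0. In the list of S phase and DNA replication 41 of 42 members had a log2 fold change above 0, with a median of 0.08, and in the list of G2 and mitosis 35 of 35, with a median of 0.09. Over all genes tested 0.11% rose and 49.2% were above 0, with a median of -0.002. The gene that passed was ORC1, the large subunit of the origin recognition complex, with 40.3, 37.7 and 36 CPM at 500 µg/mL, against 32.3, 31.0 and 32.5 CPM at 20 µg/mL (adjusted p = 0.023). Its adjusted p was 0.06 without replicate 2 at 500 µg/mL, and it passed in 1 of the 6 fits that left out a library. CDC6, which loads the replicative helicase with it, had a log2 fold change of 0.14 ± 0.04, and AURKA, a mitotic kinase, of 0.15 ± 0.05, with adjusted p of 0.17 and 0.32. The growth marker MKI67 had 972, 1140 and 968 CPM at 500 µg/mL and 921, 929 and 1090 CPM at 20 µg/mL, with overlapping groups. Outside these lists SPAG5, a spindle protein, had 90.8, 94.5 and 91.6 CPM at 500 µg/mL, against 78.5, 81.0 and 81.2 CPM at 20 µg/mL (adjusted p = 0.033, and 0.17 without replicate 2 at 500 µg/mL), but passed in 0 of the 6 fits that left out a library. NOLC1, a nucleolar protein of ribosome production, rose by 0.14 ± 0.03 (SE; adjusted p = 0.038, and 0.17 without replicate 2 at 500 µg/mL), the smallest change that passed. CDK11B, a kinase tied to splicing, rose by 0.24 ± 0.05 (SE; adjusted p = 0.021, and 0.28 without replicate 2 at 500 µg/mL, its highest library at 69.1 CPM). CDK11B has a near-identical neighbour, CDK11A, so its count is uncertain.

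**Figure D3:**
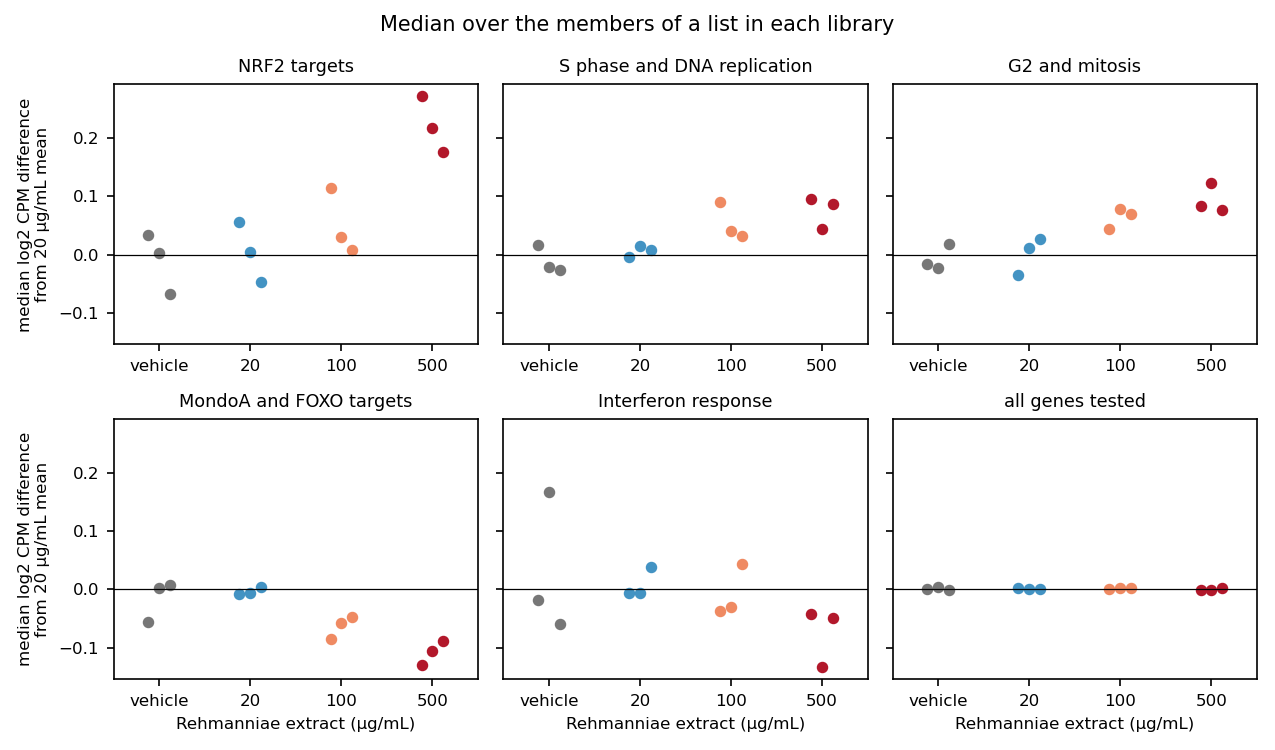
Median over the members of 6 gene sets of the log2 CPM difference from the 20 µg/mL mean (y axis), in each library of vehicle, 20, 100 and 500 µg/mL (x axis). NRF2 targets stand at 0.18 to 0.27 at 500 µg/mL, against -0.05 to 0.06 at 20 µg/mL, and the set of all genes tested stays between -0.001 and 0.004 in every library.

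By library, the median over NRF2 targets was 0.27, 0.22 and 0.18 above the 20 µg/mL mean at 500 µg/mL, against 0.06, 0.01 and -0.05 in the 20 µg/mL libraries themselves. At 100 µg/mL it was 0.12, 0.03 and 0.01 and in the vehicle 0.03, 0.00 and -0.07, so that the 500 µg/mL libraries stood apart from the 3 other groups. For G2 and mitosis the values were 0.08, 0.12 and 0.08 at 500 µg/mL, against -0.04, 0.01 and 0.03 at 20 µg/mL, and the 100 µg/mL libraries, at 0.04, 0.08 and 0.07, lay above every library at 20 µg/mL.

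Of the genes that fell, CLEC3A, a C-type lectin, was the most stable. It lies on chromosome 16 from 78022515 to 78066761. It had 71.3, 71.5 and 70.5 CPM at 500 µg/mL, against 85.6, 91.1 and 88.9 CPM at 20 µg/mL, with 83.6 CPM at 100 µg/mL and 87.1 CPM in the vehicle. The 3 libraries at 500 µg/mL differed by about 1 CPM and lay below all others (log2 fold change -0.32 ± 0.05; adjusted p = 0.00024). It passed in all 6 fits that left out a library, as did ALDH3A1, AKR1B10, ME1 and UGT1A6, and the other genes named here missed the threshold in at least 1 of these fits.

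MXD4, a partner of MAX that opposes MYC, had 41.3, 41.6 and 42.7 CPM at 500 µg/mL, against 51.5, 53.9 and 52.5 CPM at 20 µg/mL (log2 fold change -0.33 ± 0.06; adjusted p = 0.0047). The vehicle mean was 48.7 CPM, between the doses. SELENOW, a small selenoprotein, had 93.1, 85.2 and 88.5 CPM at 500 µg/mL, against 112, 108 and 104 CPM at 20 µg/mL (log2 fold change -0.28 ± 0.05; adjusted p = 0.0047), and its level was highest in the vehicle, at 119 CPM. It was the only 1 of 19 selenoprotein genes tested to pass, where 0.0673% of all genes tested fell. BMPR2, a receptor of bone morphogenetic proteins, had 115, 114 and 111 CPM at 500 µg/mL, against 137, 130 and 130 CPM at 20 µg/mL (log2 fold change -0.22 ± 0.04; adjusted p = 0.007). Without replicate 2 at 500 µg/mL the adjusted p was 0.055 for MXD4, 0.095 for SELENOW and 0.0504 for BMPR2.

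PTGS2, cyclooxygenase 2, had 19.8, 20.2 and 17.5 CPM at 500 µg/mL, against 25.2, 23.1 and 21.7 CPM at 20 µg/mL, and fell (log2 fold change -0.29 ± 0.06; adjusted p = 0.022). CYP3A5, a drug-oxidising cytochrome with close paralogs, had 94.9, 87.2 and 89.1 CPM at 500 µg/mL, against 116, 107 and 103 CPM at 20 µg/mL (adjusted p = 0.021). LOXL4, a lysyl oxidase of the extracellular matrix, had 32.7, 29.2 and 26.0 CPM at 500 µg/mL, against 36.2, 36.4 and 34.4 CPM at 20 µg/mL (adjusted p = 0.022). In these 3 genes the groups did not overlap, and without replicate 2 at 500 µg/mL the adjusted p was 0.044 for PTGS2, 0.21 for CYP3A5 and 0.15 for LOXL4.

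RHBDF1, an inactive rhomboid that steers growth factor release, was farthest from the vehicle at the lowest dose. It had 149, 137 and 145 CPM at 500 µg/mL, against 168, 160 and 163 CPM at 20 µg/mL, with 146, 145 and 144 CPM at 100 µg/mL and a vehicle mean of 138 ± 1.19 CPM (SD, n = 3). All libraries at 20 and 100 µg/mL lay above the vehicle libraries, and those at 500 µg/mL overlapped with them. DAPK1, a kinase of cell death, had 86.1, 79.5 and 80.6 CPM at 500 µg/mL, against 97.8, 97.4 and 91.2 CPM at 20 µg/mL and a vehicle mean of 85.5 CPM, and LNX1, a ubiquitin ligase, had 8.94, 10.3 and 9.69 CPM, against 11.3, 12.7 and 12.9 CPM and a vehicle mean of 10.1 CPM. The adjusted p was 0.021 for RHBDF1, 0.032 for DAPK1 and 0.031 for LNX1, and 0.33, 0.28 and 0.0504 in the same order without replicate 2 at 500 µg/mL. The vehicle was not part of these tests.

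Over the 29 genes, the 100 µg/mL mean lay between the 500 and 20 µg/mL means in 29, against 42.7% of all genes tested, and was nearer to the 20 µg/mL mean in 17. All 3 libraries at 500 µg/mL lay beyond all 3 vehicle libraries in the direction of the change in 24 of the 29, 17 of those that rose and 7 of those that fell, against 11.3% of all genes tested. In 10 of the 29 all libraries at 20 µg/mL lay beyond the vehicle on the other side, against 8.85% of all genes tested. The 29 were picked for a difference between 500 and 20 µg/mL in these same libraries, which by itself favours such positions. These shares are therefore a description and give no separate evidence of a graded response.

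The 3 remaining genes that passed are not protein-coding, and each rests on counts that are uncertain. TUBA1B-AS1, an antisense gene, had 0.185, 31.1 and 0.0414 CPM at 500 µg/mL, against 0.136, 0.14 and 0.0429 CPM at 20 µg/mL. Replicate 2 alone made the difference, and without it the adjusted p was 1. The strand setting of the counting is not given in the sources used here, so reads of the antisense and sense genes may not have been told apart. The pseudogene HMGB1P6 had 49.5, 76.5 and 60.1 CPM at 500 µg/mL, against 35.8, 39.7 and 40 CPM at 20 µg/mL (adjusted p = 0.018), highest again in replicate 2. The pseudogene INAVAP1 had 0.297, 0.0376 and 0.0828 CPM at 500 µg/mL, against 0.646, 0.559 and 0.601 CPM at 20 µg/mL (adjusted p = 0.022). Without replicate 2 the adjusted p of both pseudogenes was 0.28.

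**Figure D4:**
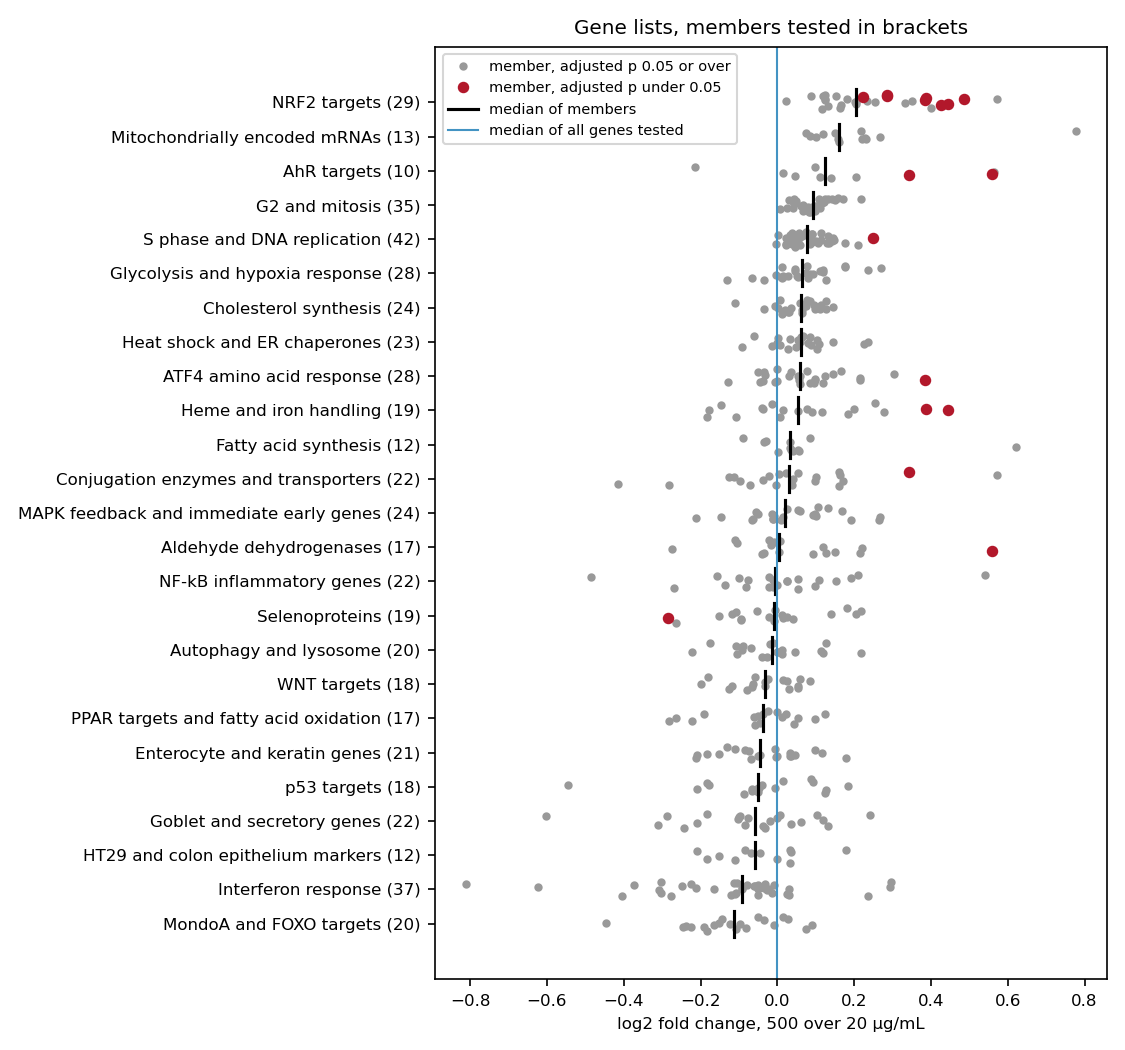
Log2 fold change of 500 over 20 µg/mL (x axis) of the tested members of gene lists (y axis, with the number tested); red points passed the test, black bars are medians and the blue line is the median of all genes tested. Lists with at least 10 members tested are shown; of these, NRF2 targets have the highest median, at 0.20, and targets of MondoA and FOXO the lowest, at -0.11.

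Of 29 gene lists, 21 had no member that passed. Targets of MondoA, a glucose sensor, and of FOXO factors, which act when insulin signalling is low, had a median of -0.11, with 16 of 20 below 0 and 8 whose groups did not overlap, all lower, against 6.57% of all genes tested. SESN1, which restrains mTORC1, had 29.8, 27.6 and 31.0 CPM at 500 µg/mL and 33.3, 34.3 and 32.9 CPM at 20 µg/mL (adjusted p = 0.21). KLHL24, an adaptor of a ubiquitin ligase, had 20.4, 20.2 and 22.9 CPM at 500 µg/mL and 25.5, 24.5 and 25.1 CPM at 20 µg/mL (adjusted p = 0.22), while TXNIP, the best-known MondoA target, had a log2 fold change of -0.12 ± 0.06. Interferon-stimulated genes had a median of -0.09, with 31 of 37 below 0. The RNA sensor RIGI had 10.8, 8.84 and 10.8 CPM at 500 µg/mL and 13.5, 11.1 and 12.8 CPM at 20 µg/mL (adjusted p = 0.13). IFIT5, of the same list, went the other way without passing (adjusted p = 0.21). It had 7.86, 7.33 and 7.82 CPM at 500 µg/mL and 6.26, 6.28 and 6.22 CPM at 20 µg/mL. Without replicate 2 at 500 µg/mL the medians were -0.07 for MondoA and FOXO targets, -0.05 for interferon-stimulated genes and 0.27 for NRF2 targets.

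Genes of glycolysis and the hypoxia response had a median of 0.06 with 24 of 28 above 0, those of cholesterol synthesis 0.06 with 21 of 24, and heat shock and endoplasmic reticulum chaperones 0.06 with 19 of 23. HSP90AA1, a cytosolic chaperone, had 1170, 1170 and 1160 CPM at 500 µg/mL and 1060, 1050 and 1050 CPM at 20 µg/mL without passing (adjusted p = 0.16, and 0.047 with DESeq2). Its adjusted p in edgeR's test without replicate 2 at 500 µg/mL was 0.34. In the ATF4 list SLC7A11 alone passed of 28 genes, against 0.177% of all genes tested. ASNS, asparagine synthetase, had a log2 fold change of 0.14 ± 0.05 (adjusted p = 0.31). Mitochondrially encoded mRNAs had a median of 0.16 with 13 of 13 above 0, and replicate 2 stood apart, since its median was 0.56 above the 20 µg/mL mean, while it was -0.07 and 0.01 in the other libraries at 500 µg/mL. Metallothioneins and zinc genes had a median of -0.19 over 8 members, and MT2A had 36.7, 35.3 and 34.2 CPM at 500 µg/mL and 37.5, 34.5 and 50.7 CPM at 20 µg/mL. The WNT target AXIN2, the p53 target CDKN1A, the mucin MUC2, the keratin KRT20 and the chemokine CXCL8 had log2 fold changes of 0.01, -0.05, -0.04, 0.04 and -0.14, and none passed. Of the 18 p53 targets tested, 12 were below 0 and the median was -0.05. TP53INP1 came closest among them (log2 fold change -0.545 ± 0.129, SE; adjusted p = 0.054). Its groups did not overlap, with means of 3.93 CPM at 500 µg/mL and 5.7 CPM at 20 µg/mL.

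Other extracts of the series, given to the same line at the same nominal doses, were set beside Rehmanniae Radix Preparata. Cnidii Rhizoma is the rhizome of a Cnidium plant, Cinnamomi Cortex is cinnamon bark, and Samul-tang is a traditional formula whose recipe includes Rehmannia root. Each was compared at 500 against 20 µg/mL with its own 3 libraries per dose, and the difference between extracts was tested as an interaction. Cnidii Rhizoma had 70 genes past the test (0.428%), of which those that rose were 0.251% of all genes tested. Samul-tang had 23 (0.141%), and Cinnamomi Cortex had 1670 (10.2%), with 4.6% of all genes tested higher and 5.61% lower. The genes shared with Rehmanniae Radix Preparata numbered 12 for Cnidii Rhizoma, 41.4% of the Rehmanniae genes and 17.1% of the others. For Samul-tang they were 10, 34.5% and 43.5%, and for Cinnamomi Cortex 18, 62.1% and 1.08%. All shared genes had the same sign in both.

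Of the 29 NRF2 targets, 8 rose with Rehmanniae Radix Preparata, 17 with Cnidii Rhizoma, 9 with Samul-tang and 27 with Cinnamomi Cortex, and the medians were 0.20, 0.31, 0.22 and 0.45 on the log2 scale. ALDH3A1 rose by 0.56, 0.71, 0.60 and 0.74 on that scale in the same order, and its difference between Rehmanniae Radix Preparata and Cinnamomi Cortex did not pass (adjusted p = 0.32). AKR1B10 rose by 0.43 with Rehmanniae Radix Preparata and by 0.95 with Cnidii Rhizoma. Its difference of -0.53 ± 0.08 (SE; adjusted p = 0.00046) was 1 of 2 that passed against that extract (0.0122% of genes tested). The other was ADD2, an adducin of the cell cortex, at about 1 CPM, with a difference of 2.17 ± 0.40 against Cnidii Rhizoma (adjusted p = 0.016) and 2.07 ± 0.36 against Samul-tang (adjusted p = 0.013), where it was the only 1 to pass (0.00611%). In Rehmanniae libraries ADD2 had 1.19, 1.43 and 1.03 CPM at 500 µg/mL and 0.714, 0.698 and 0.729 CPM at 20 µg/mL, and without replicate 2 at 500 µg/mL neither difference passed (adjusted p = 0.11 for both). In the S phase list 41 of 42 members were above 0 with Rehmanniae Radix Preparata. The number was 41 with Cnidii Rhizoma, 39 with Samul-tang and 12 with Cinnamomi Cortex. For G2 and mitosis it was 35, 33, 33 and 25 of 35 in the same order, Rehmanniae Radix Preparata first. For interferon-stimulated genes it was 6, 5, 4 and 7 of 37. The differences between these counts were not tested.

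Against Cinnamomi Cortex 308 genes differed (1.88%), with 1.24% of genes tested above 0 in the difference and 0.648% below, among them 6 of the 29. Of these, AKR1B10, AKR1C2, ME1 and TKT rose less with Rehmanniae Radix Preparata, with differences of -0.61, -1.12, -0.33 and -0.23 on the log2 scale. The difference of TKT passed narrowly (adjusted p = 0.0496) and had an adjusted p of 0.094 without replicate 2 of Rehmanniae Radix Preparata at 500 µg/mL. CDK11B, which rose with Rehmanniae Radix Preparata, had a log2 fold change of -0.06 ± 0.05 with Cinnamomi Cortex, a difference of 0.30 ± 0.07 (SE; adjusted p = 0.013, and 0.07 without replicate 2 of Rehmanniae Radix Preparata at 500 µg/mL). Of the 24 cholesterol genes, 0 passed with Rehmanniae Radix Preparata in edgeR's test and 21 rose with Cinnamomi Cortex, and the difference between these counts was not tested. On the first principal component of the 57 libraries fitted, which held 15.7% of the variance, replicates 1 and 2 of Cinnamomi Cortex at 500 µg/mL lay at -21.2 and -16.0 and replicate 3 at 14.4, whereas at 20 µg/mL replicate 1 lay at -10.3 and replicates 2 and 3 at 3.5 and 8.1. The Rehmanniae libraries also spread, at -5.4, -29.5 and -13.4 for replicates 1, 2 and 3 at 500 µg/mL and at -7.4, -10.5 and -18.5 at 20 µg/mL. Without replicate 2 of Cinnamomi Cortex at 500 µg/mL, 239 genes differed, CDK11B no longer among them (adjusted p = 0.054). The part of the spread of either extract in the result was not tested.

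**Figure D5:**
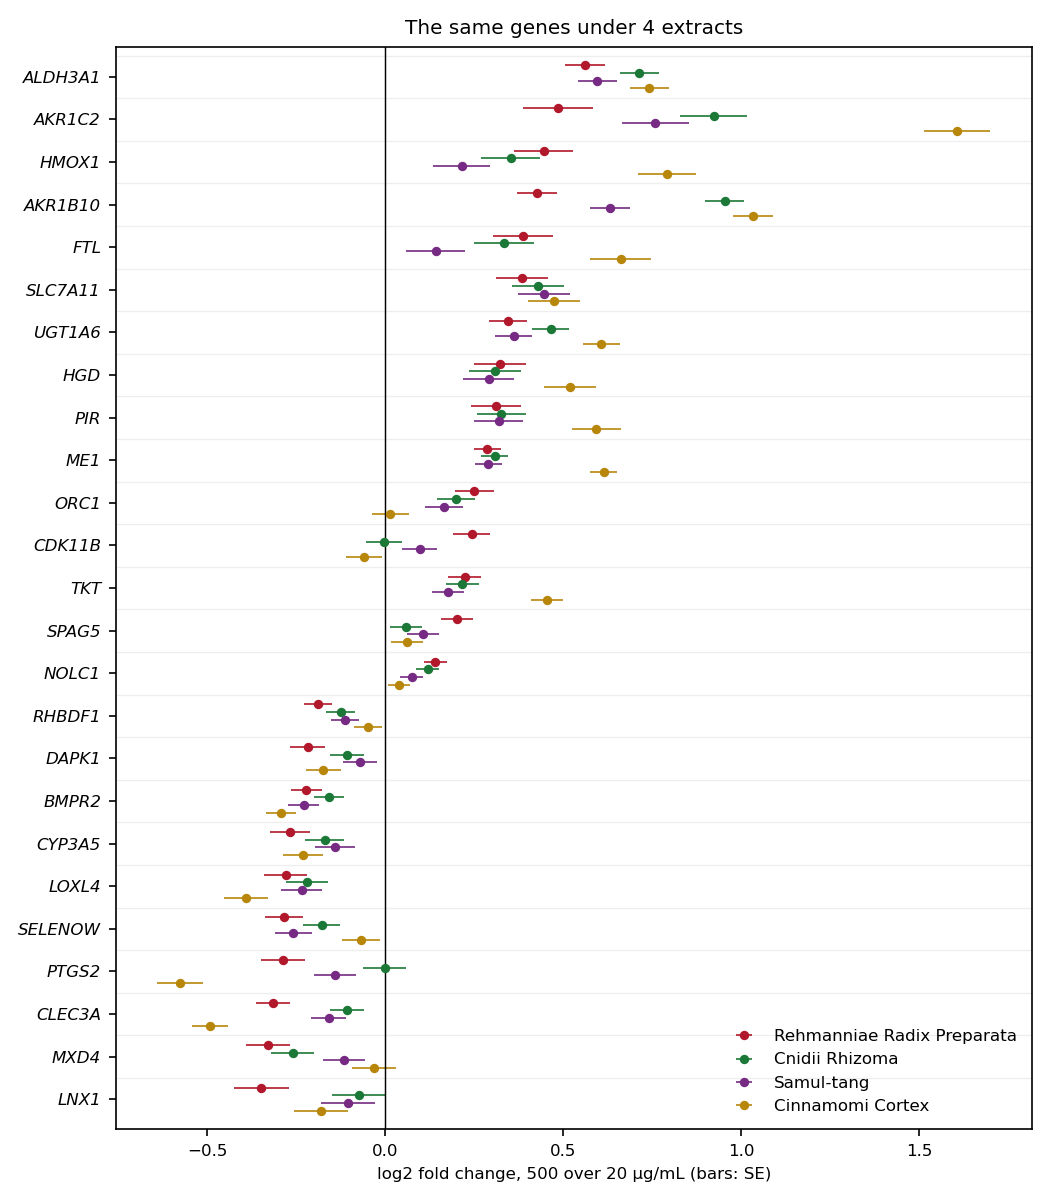
Log2 fold change of 500 over 20 µg/mL (x axis) of protein-coding genes that passed with Rehmanniae Radix Preparata, in that extract, Cnidii Rhizoma, Samul-tang and Cinnamomi Cortex; bars are standard errors. AKR1C2 ranges from 0.48 with Rehmanniae Radix Preparata to 1.61 with Cinnamomi Cortex, while CDK11B is above 0.2 only with Rehmanniae Radix Preparata.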

How the data were processed

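Per the labels' protocols, RNA of integrity over 7 went into a kit that marks strand and was read as pairs of 100 bases. The authors deposited expected counts from RSEM 1.3.3 for 60675 Ensembl genes, after alignment with STAR 2.7.3a. Per the submitters' processing notes, Trim Galore 0.6.5, FastQC 0.11.9 and the GRCh38 (hg38) build were also used. Which annotation release and strand setting were used is not given in the sources used here. Values were rounded, since 8.8% had decimals. The table has 60 columns that the labels tie to these samples, and the other 213 were not used.

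The test was the quasi-likelihood test of edgeR 4.0.16 (R 4.3.3) with TMM factors and 1 coefficient per group, on the 57 libraries of groups with 3 replicates, so that all groups share 1 estimate of the spread. The filter on low counts was filterByExpr (minimum count 10). Adjusted p is Benjamini-Hochberg's over 16356 genes, and a gene passed at an adjusted p under 0.05. A fold change is 500 over 20 µg/mL on the log2 scale, and CPM are counts scaled to a common library size with TMM factors. Differences between extracts were tested as interactions in the same fit. Alternatives were RLE size factors, no filter, DESeq2 1.42.0, a replicate block, fits of fewer libraries and leaving out each library.

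The chi-square per degree of freedom between replicates was 2.89 to 24.44, above the 1 of counting noise, and each library counted as its own sample. The 60 libraries held 20459346 to 36253747 counts. A gene-name table supplied 56558 symbols and GENCODE release 29 another 497, leaving 3620 identifiers unnamed. Named are the markers ALDH3A1 and HMOX1, all genes that passed other than pseudogenes, from each list the members that passed and the 2 of smallest p, a fixed panel, and up to 5 genes of smallest p for each difference between extracts. The pseudogenes HMGB1P6 and INAVAP1, and ADD2, at a mean log2 CPM under 1, stand outside that rule and were named after their values were seen. The members and lists were chosen with earlier results of these data known. Promoter sequences are RefSeq's. The values of 1 gene that passed are not reported here, though it stays in the fits and counts.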

Additional observations from a re-analysis of the deposited data

Results flagged for a closer look

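For these genes the change between 500 and 20 µg/mL differed between Rehmanniae Radix Preparata and another extract in a test of the difference itself (edgeR, interaction). Against Cnidii Rhizoma, AKR1B10 had a difference of -0.53 ± 0.08 on the log2 scale (SE; adjusted p = 0.00046). Against Cinnamomi Cortex, AKR1B10 differed by -0.61, AKR1C1 by -1.25, AKR1C2 by -1.12, ME1 by -0.33 and TKT by -0.23, all rising less with Rehmanniae Radix Preparata by value, and TKT with an adjusted p of 0.0496. CDK11B differed by 0.30.

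The other genes taken by size of the test against Cinnamomi Cortex did not pass within Rehmanniae Radix Preparata. SLC39A10, a zinc importer, differed by -0.95, with 40.5 CPM at 500 µg/mL and 41.0 CPM at 20 µg/mL of Rehmanniae Radix Preparata, and 78.9 CPM and 41.3 CPM at the same doses of Cinnamomi Cortex. EIF5B, a translation initiation factor, differed by 0.96, with 290 and 254 CPM with Rehmanniae Radix Preparata and 145 and 248 CPM with Cinnamomi Cortex. PPIG, a splicing-related isomerase, differed by 0.83 and GOLGA8A, a golgin, by 0.71, both lower at 500 µg/mL with Cinnamomi Cortex. Without replicate 2 of Cinnamomi Cortex at 500 µg/mL these 4 differences were -0.97, 0.95, 0.79 and 0.71, TKT had an adjusted p of 0.025 and CDK11B one of 0.054.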

How the results depend on the processing

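Of the 29 genes, 29 passed also with RLE size factors, 27 with DESeq2 and 24 without a filter on low counts. The number of genes that passed was 29 with RLE size factors, 204 without a filter, 54 with DESeq2, 21 with the 18 libraries of Rehmanniae Radix Preparata and Cnidii Rhizoma, 7 with the 9 Rehmanniae libraries and 1, ALDH3A1, with the 6 libraries compared. Fewer libraries give fewer degrees of freedom for the spread, and the cause of the other changes was not tested. Leaving out 1 library gave 12 to 32 genes, namely 32, 12 and 17 without replicates 1, 2 and 3 at 500 µg/mL and 16, 14 and 20 without replicates 1, 2 and 3 at 20 µg/mL. All 29 kept their direction in each of these 6 fits. For the difference from Cnidii Rhizoma, 2 genes passed, 96 without a filter and 1 to 3 with 1 library left out. For Samul-tang it was 1 gene, 112 without a filter, 0 with DESeq2 and 0 to 1 with 1 library left out. For Cinnamomi Cortex it was 308, 292 with RLE size factors, 450 without a filter, 361 with DESeq2 and 192 to 310 with 1 library left out. Over all genes tested the replicate numbers showed little sign of pairing. Deviations of same-numbered libraries at 500 and 20 µg/mL correlated at 0.146, 0.000578 and -0.018. The NRF2 targets did share an order, with medians falling from replicate 1 to replicate 3 at each dose and in the vehicle. They were 0.27, 0.22 and 0.18 at 500 µg/mL and 0.06, 0.01 and -0.05 at 20 µg/mL. Whether the replicate numbers pair the samples is therefore undecided. A fit with a replicate block had 165 genes, the 29 among them, and also GCLM, NQO1, SRXN1, AKR1C1, AKR1C3 and FTH1, with adjusted p of 0.0024, 0.0045, 0.017, 0.0017, 0.005 and 0.00035. It had 5, 1 and 795 genes for the differences from Cnidii Rhizoma, Samul-tang and Cinnamomi Cortex. Depth, at 21467132 counts or more per library, limits mainly genes near or under 1 CPM such as INAVAP1 and ADD2.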
